A study of Mus musculus with 14 samples.

Results

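The genes described here are 9 components of transforming growth factor β (TGF-β) signalling, chosen by name for their place in the pathway. They are the ligands Tgfb1, Tgfb2 and Tgfb3, the receptors Tgfbr1 and Tgfbr2, the Smads Smad3 and Smad7, and Skil and Pmepa1. Smad3 transduces the signal, whereas Smad7 inhibits it. Skil and Pmepa1 are feedback targets of the pathway, and Smad7, which also restrains it, was grouped with Smad3 as a Smad. Each gene was taken as a locus, that is, the annotated gene body with 50 kb of flank at either end. Any listed site that shared at least 1 bp with a locus was counted. The 9 loci held 268 of the 122228 listed H3K27ac sites. H3K27ac is the acetylated form of histone H3 at lysine 27 and is found at active promoters and enhancers. They are 9 of 21755 protein-coding genes on chromosomes 1 to 19 and X.

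The study asked how histone marks change once ASH2L, a core subunit of the COMPASS/KMT2 histone methyltransferases, is removed. The cells were immortalised mouse embryo fibroblasts (iMEF-Ash2l fl/fl-Cre-ER) in which the endogenous Ash2l gene had been deleted with hydroxytamoxifen. A lentiviral construct supplied human ASH2L fused to FKBP(F36V) and an HA tag, and dTAG-13 brings about degradation of that fusion protein. The cells were the clone NG3, so all libraries come from a clonal line. ChIP-seq for H3K27ac was done in duplicate in cells without dTAG and after treatment with dTAG for 30 min or for 2, 4, 8 or 16 h. This gave 12 H3K27ac libraries, with 2 input libraries from control cells and from cells after 16 h.

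The list analysed joins the sites of all samples and gives positions only, so a site may stem from any time point. It gives no read count or replicate for a site, so the values below have no replicate error, the depth behind each site is unknown, and dTAG was not compared with control here. The values are therefore descriptions, with the protein-coding genes or all listed sites as background. As a check of the cell type, all 12 fibroblast marker genes had at least some site sequence within 1 kb of their 5′ end. This criterion was loose, since over all protein-coding genes the median cover of these 2 kb was 16.5%. A site whose middle was within 1 kb of a transcription start site (TSS) was found for 10 of the 12, compared to 54.7% of all protein-coding genes. Of 19 markers of epithelial, endothelial, blood, neural, muscle and embryonic stem cells, 3 had such a site, namely Cdh5, Tek and Tubb3.

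TGF-β ligands are secreted in a latent form and, once released, bind the type II receptor, which recruits and phosphorylates the type I receptor. The type I receptor phosphorylates Smad2 and Smad3, which enter the nucleus with Smad4 and regulate genes. Several of these genes, among them Smad7, Skil and Pmepa1, encode proteins that restrain the pathway. In fibroblasts TGF-β is known for driving the production of extracellular matrix.

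Within the 9 loci, 299 kb of 1396 kb, or 21.4%, lay in sites, compared to 2.99% of all bases of chromosomes 1 to 19 and X. The share per locus ranged from 2.76% at Tgfbr1 to 45.3% at Tgfb3, with a median of 16.1%. The median was 3.40% over all protein-coding loci and 5.58% over the 11908 loci whose gene had a promoter site, defined as a site with its middle within 1 kb of a TSS. Only Tgfbr1 was below the latter median. Tgfb3, Smad7, Pmepa1 and Smad3, with 45.3%, 38.2%, 33.6% and 33.1%, exceeded 22.1%, the 95th percentile of loci with a promoter site. The number of sites per locus ranged from 10 at Tgfbr1 to 57 at Tgfb3, with a median of 20. This compares to 7 over all protein-coding loci and 11 over those with a promoter site. Per 100 kb of locus, the median was 15.6 for the 9 genes, 5.29 for all protein-coding loci and 8.19 for those with a promoter site.

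**Figure D1:**
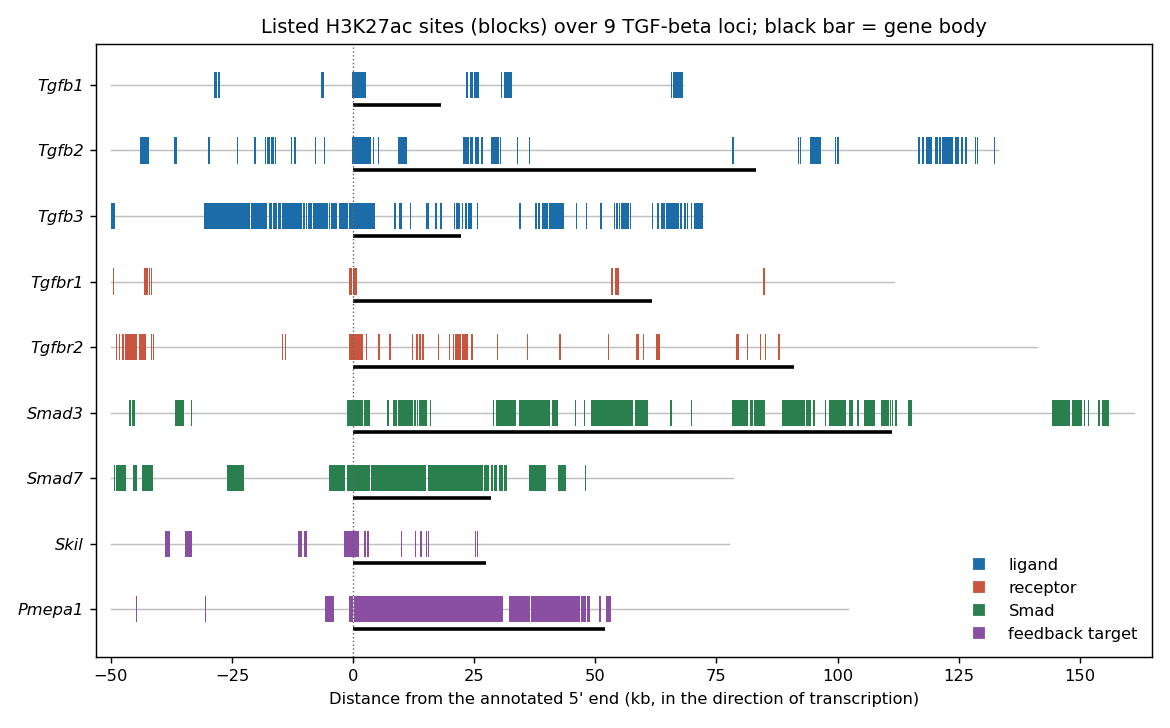
Map of the 268 sites over the 9 loci, drawn to scale. The x axis gives the distance from the annotated 5′ end in kb, in the direction of transcription, blocks are sites coloured by the role of the gene, and the black bar under each line is the gene body. Sites filled nearly the whole bodies of Smad7 and Pmepa1 and lay closely together from −30848 to 4471 at Tgfb3, whereas Tgfbr1 had 10 sites in all.

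Genes of the same role differed from each other. Pooled over their loci, the ligands had 22.6% of bases in 114 sites, the receptors 6.65% in 50 sites, the Smads 35.0% in 72 sites and the feedback targets 21.7% in 32 sites. The ratio of the covered share of feedback targets to that of ligands was 0.963. Smad7, which also restrains the pathway and had 38.2% covered, was counted with the Smads. The ratio with Smad7 among the feedback targets was not computed. Within the ligands the share differed 5.00-fold between Tgfb1 and Tgfb3, and within the feedback targets 4.47-fold between Skil and Pmepa1. The ratio depended on the flank, since it was 3.47 for gene bodies alone, and on single genes, since it was 0.334 without Pmepa1 and 1.63 without Tgfb3. Sites per 100 kb gave another order, with 26.9 for ligands, 21.2 for Smads, 14.2 for receptors and 11.4 for feedback targets. Pooled, the feedback targets thus had the fewest sites per length, although Pmepa1 had the widest site. By single locus, Tgfbr1 with 6.18 and Tgfb1 with 10.2 sites per 100 kb were below Pmepa1 with 10.5 and Skil with 12.5.

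**Figure D2:**
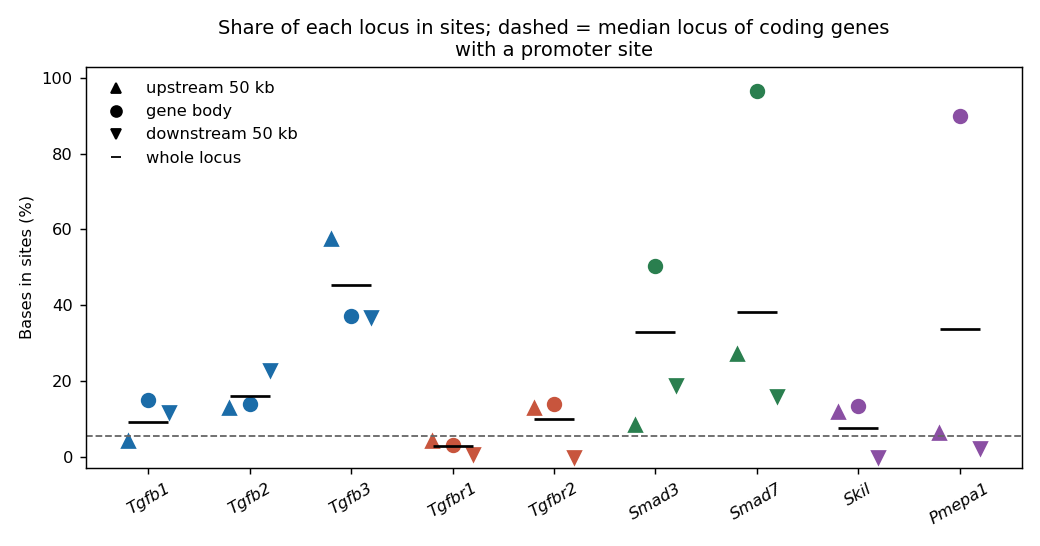
Share of bases in sites, in percent, for the upstream flank, gene body and downstream flank of each gene, coloured by role, with a black bar for the whole locus. The dashed line is the median locus of protein-coding genes with a promoter site, 5.58%. The gene bodies of Smad7 and Pmepa1 stand at 96.6% and 90.0%, and the upstream flank of Tgfb3 at 57.4%.

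Promoters were examined next. A promoter site was found for 8 of the 9 genes, compared to 54.7% of all protein-coding genes, and a site enclosed the annotated 5′ end of 8 of 9, compared to 36.5%. The genes that lacked these were not the same. Tgfb3 had its 5′ end inside a site of 4783 bp, whose middle was 1481 bp away because the site reached far into the gene. Pmepa1 had its 5′ end in a gap of 192 bp between sites, from −106 to 85. The 2 kb centred on the 5′ end were covered to 64.1% at Tgfb1, 65.0% at Tgfb2, 95.5% at Tgfb3, 75.4% at Tgfbr1, 92.3% at Tgfbr2, 94.9% at Smad7 and 84.3% at Pmepa1. At Smad3 and Skil the cover was 100%. The median of the 9 genes was 92.3%, compared to 62.4% for protein-coding genes with a promoter site.

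**Figure D3:**
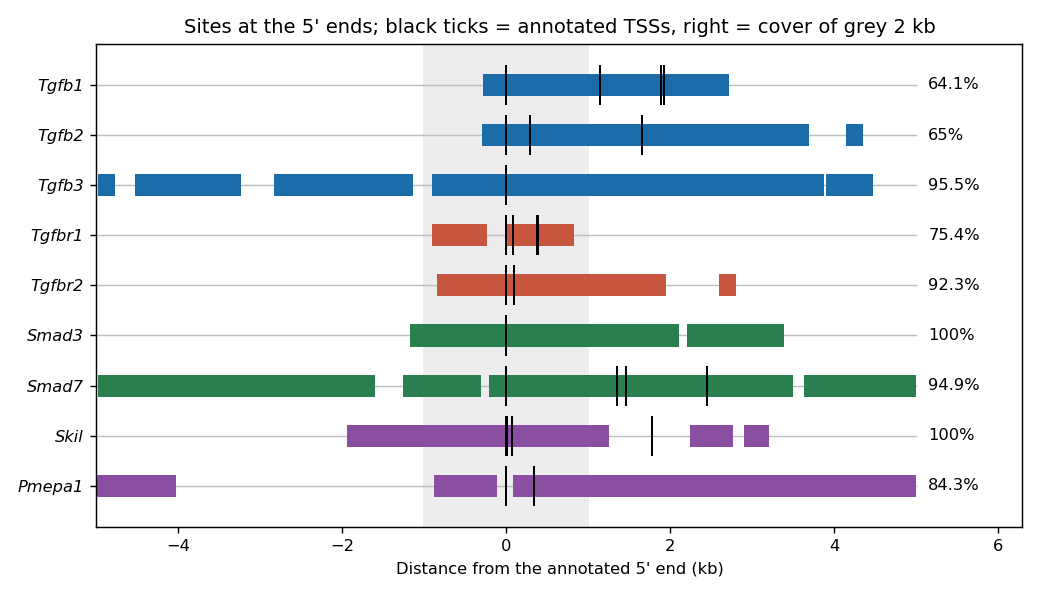
Sites within 5 kb of the annotated 5′ end of each gene. The x axis is the distance from the 5′ end in kb, blocks are sites coloured by role, black ticks are annotated TSSs, and the percentage at the right is the cover of the grey window of 2 kb. All 9 genes had site sequence in the window, from 64.1% at Tgfb1 to 100% at Smad3 and Skil.

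The ligands are related proteins encoded by separate genes. Tgfb1 (GRCm38, chromosome 7, 25687002 to 25705077, plus strand) is the isoform found most widely. Its locus had 12 sites that covered 10696 bp or 9.06%. The site at its 5′ end measured 3006 bp and reached from −282 to 2723, over the 5′ UTR, the coding part of exon 1 and into intron 1. It was the only site in the gene body, and introns beyond intron 1 had 0% of their bases in sites. Of the 12 sites it was also the only one for which the Tgfb1 TSS was the nearest protein-coding TSS. Another 6 sites were within 1 kb of the TSSs of Bckdha, Exosc5, B9d2, Ccdc97 or Hnrnpul1. Without the sites nearest to other genes, Tgfb1 had 1 site.

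Tgfb2 (chromosome 1, 186622792 to 186705989, minus strand) had 45 sites, of which 41 were nearest to its own TSS. They covered 29427 bp, or 16.1% of the locus, with 13 sites upstream, 15 in the gene body and 17 downstream. The widest, with 3996 bp from −299 to 3696, lay over the 5′ end and 3 annotated TSSs. Intron 1, with a length of 54530 bp, was overlapped by 14 sites and covered to 17.6%, compared to 1.87% for the other introns. Between 36516 and 78145 bp from the 5′ end no site was listed. Beyond the 3′ end, a cluster of 9 sites spanned 10036 bp, from 116615 to 126650 bp from the 5′ end, with less than 1 kb between neighbours.

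Tgfb3 (chromosome 12, 86056745 to 86079041, minus strand) had the most sites and the largest covered share of the 9 genes, with 57 sites and 55409 bp or 45.3%. This share was higher than at 99.9% of all protein-coding loci. Upstream, 57.4% of the flank was covered, in the gene body 37.3% and downstream 36.8%. From −30848 to 4471, 17 sites followed each other at gaps of less than 1 kb over 35320 bp, of which 32328 bp were site sequence. The widest of them, 7131 bp from −28489 to −21359, lay within Ift43, a gene for a ciliary transport protein whose 5′ end lies at −3500 and which is transcribed away from Tgfb3. The 3′ part of the locus overlapped Ttll5. For 30 of the 57 sites the Tgfb3 TSS was the nearest, and which gene any of the 57 sites belongs to was not tested.

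The 200 bases upstream of the 5′ ends of the ligand genes are given because they differed between Tgfb1 and the others, although all 3 stretches were entirely inside sites. They are RefSeq sequence of GRCm38.p6 and are written 5′ to 3′ on the strand of the gene. Capitals mark a GC box (GGGCGG on either strand), which binds Sp1-type factors, or a TATA box (TATAAA on either strand).
Tgfb1, chr7:25686802-25687001, plus strand: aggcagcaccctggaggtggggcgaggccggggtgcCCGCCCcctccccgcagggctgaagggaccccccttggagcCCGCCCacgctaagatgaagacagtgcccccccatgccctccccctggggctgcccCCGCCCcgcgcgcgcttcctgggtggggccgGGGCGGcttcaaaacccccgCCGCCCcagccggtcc
Tgfb2, chr1:186705990-186706189, minus strand: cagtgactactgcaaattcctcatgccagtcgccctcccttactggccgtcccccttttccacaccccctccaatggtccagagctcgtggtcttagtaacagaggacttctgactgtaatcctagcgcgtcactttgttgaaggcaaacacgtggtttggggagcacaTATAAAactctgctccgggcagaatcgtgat
Tgfb3, chr12:86079042-86079241, minus strand: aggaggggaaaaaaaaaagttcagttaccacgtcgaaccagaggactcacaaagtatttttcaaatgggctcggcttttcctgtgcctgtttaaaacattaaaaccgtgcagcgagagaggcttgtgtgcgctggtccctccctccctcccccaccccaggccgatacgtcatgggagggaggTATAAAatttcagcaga

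Tgfb1 had 5 GC boxes, no TATA box and a GC content of 77.5%. Tgfb2 and Tgfb3 had no GC box, a GC content of 52.5% and 50.0%, and a TATA box each, whose first base was at −31 in Tgfb2 and at −17 in Tgfb3. Among all protein-coding genes, 37.8% had a GC box in this window and 9.27% a TATA box. Of the other members with a stretch examined, Skil had 4 GC boxes, Tgfbr1 and Pmepa1 2 each, Smad3 1 and Tgfbr2 0, and none of these 5 had a TATA box. The stretches of Tgfb2 and Tgfb3 also overlapped an exon of the non-coding genes Gm29491 and Gm48008, respectively. That of Pmepa1 overlapped 1 annotated exon as well. A match of letters is not evidence that a factor bound there.

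Pooled, the receptors had the lowest share of locus bases in sites of the 4 roles. As a single locus, however, Tgfbr2 with 9.94% was above Tgfb1 with 9.06% and Skil with 7.53%. Tgfbr1 (chromosome 4, 47353222 to 47414931, plus strand), the type I receptor kinase also known as ALK5, had 10 sites with 4467 bp, or 2.76% of the locus, a share above that of 23.2% of loci with a promoter site. A site of 836 bp from −4 to 831 covered its 5′ end, and another of 673 bp lay upstream, from −901 to −229. The next site was 52420 bp further on. There, 3 sites of 424, 354 and 320 bp lay in introns 7 and 8. Another 4 upstream sites, of which the widest had 672 bp, were nearest to Col15a1, a collagen gene, and the only downstream site had 397 bp. No site of this locus exceeded 836 bp.

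Tgfbr2 (chromosome 9, 116084293 to 116175360, minus strand), the type II receptor that binds the ligand, had 40 sites with 18998 bp or 9.94%. The Tgfbr2 TSS was the nearest protein-coding TSS for all 40. The widest site, 2799 bp from −845 to 1953, covered both annotated TSSs. Of the gene body 13.8% was covered, and 18 sites overlapped intron 1, which has 43230 bp and was covered to 19.4%. A cluster of 7 sites spanned 6276 bp far upstream, from −49021 to −42746. No site was listed in the downstream flank. The median width at Tgfbr2 was 331.5 bp, below the median of 401 bp for the whole list, so the number of sites and their cover gave different pictures. Compared to Tgfbr1, Tgfbr2 had 30 more sites and 4.25-fold more covered bases, in a locus 1.18-fold longer.

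Smad3 and Smad7 act in opposite directions, Smad3 as a transducer of the receptor signal and Smad7 as an inhibitor that targets the receptor. Smad3 (chromosome 9, 63646767 to 63757994, minus strand) had 52 sites with 69824 bp, the most covered bases of the 9 loci, or 33.1%. Its gene body was covered to 50.5%, compared to 8.33% of the upstream and 19.1% of the downstream flank. The site at the 5′ end, 3282 bp from −1173 to 2108, was not the widest. That was a site of 6494 bp in intron 1, from 34146 to 40639. Intron 1, with 89549 bp, was overlapped by 25 sites and covered to 46.5%, and the other introns were covered to 67.6%. A site of 4652 bp enclosed the internal TSS at 91447 bp, from which a shorter protein-coding transcript starts. Of the 52 sites, 36 were nearest to a Smad3 TSS, and 9 of the 12 downstream sites overlapped Aagab.

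Smad7 (chromosome 18, 75367529 to 75395935, plus strand) had 20 sites with 49011 bp or 38.2%. The gene body was covered to 96.6%, the highest value of the 9 genes. It consisted mainly of a site of 3714 bp over the 5′ end, from −209 to 3504, and sites of 11509 and 11492 bp that followed it. These ranked 26 and 27 by width among 122171 sites, of which 44 exceeded 10 kb. They covered introns 2 and 3, coding sequence and part of the 3′ UTR. All 5 annotated TSSs were inside sites. From −4984 to 31866, 10 sites formed a region of 36851 bp with gaps of less than 1 kb, of which 34751 bp were site sequence. All 20 sites were nearest to a Smad7 TSS. Compared to Smad3, Smad7 had fewer sites, and their median width was 951 bp compared to 699.5 bp.

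Skil and Pmepa1 are both induced by TGF-β. Skil (chromosome 3, 31095058 to 31122577, plus strand) encodes SnoN, a co-repressor that binds Smads. It had 16 sites with 9598 bp or 7.53%. A site of 3198 bp from −1946 to 1251 lay over the 5′ end and 4 of the 5 annotated TSS positions. The median width over the locus was 285 bp, the lowest of the 9, and sites farther upstream reached 1145 bp. In the gene body 9 sites of 200 to 519 bp followed, and in the downstream flank there was none.

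Pmepa1 (chromosome 2, 173224458 to 173276533, minus strand) encodes a membrane protein that binds receptor-activated Smads and keeps them from the receptor. It also had 16 sites, but with 51131 bp, 5.33-fold more than Skil. A site of 23608 bp, from 86 to 23693, ranked 2 by width in the whole list and accounted for 46.2% of the covered bases of the locus. It began in exon 1 and lay almost entirely in intron 1, which has 41626 bp and was covered to 95.5%. Further sites of up to 5672 bp followed, and the gene body was covered to 90.0%. The flanks were covered to 6.20% upstream and 2.29% downstream. Upstream of the 5′ end, a site of 771 bp from −877 to −107 was the only site within 1 kb of a TSS by its middle.

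**Figure D4:**
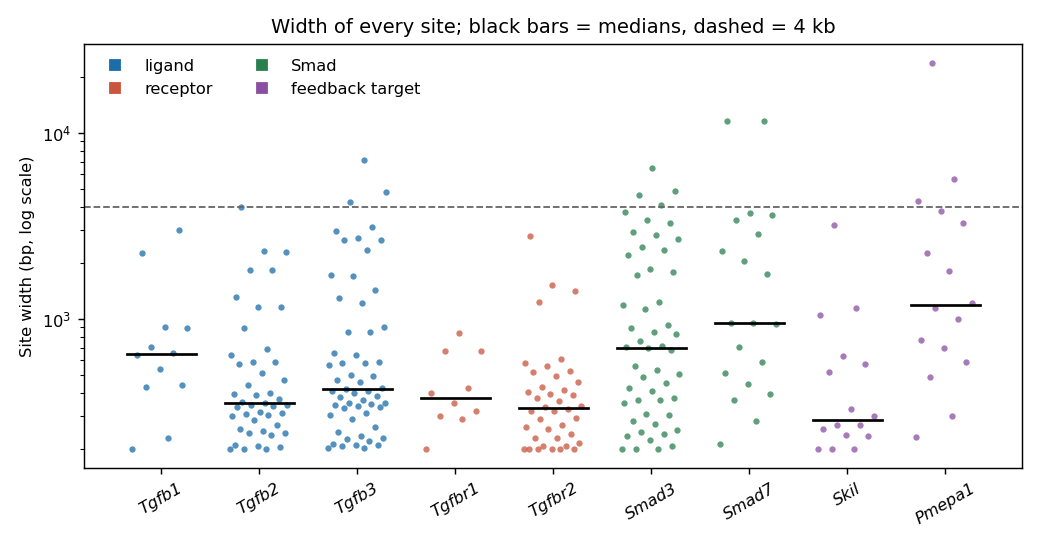
Width in bp, on a log scale, of every site of the 9 loci. Points are sites coloured by role, black bars are medians per locus and the dashed line is 4 kb. The widest site lies in Pmepa1 with 23608 bp, followed by those of Smad7 with 11509 and 11492 bp, and 12 sites lie above 4 kb.

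Over the 9 loci the width had a median of 444 bp and quartiles of 290.75 and 1067.75 bp. In the list the median was 401 bp and the quartiles were 265 and 723 bp. Widths above 4 kb were reached by 12 of 268 sites (4.48%), compared to 0.711% of the list. Smad3 had 4 of them, Tgfb3 and Pmepa1 3 each and Smad7 2, while Tgfb1, Tgfb2, both receptors and Skil had 0. If overlapping peaks of different samples were merged, a width can exceed that in any sample, and this was not tested. The GC content (median 50.4% compared to 48.8%) and the share of repeats (median 10.9% compared to 11.0%) were close to those of the list.

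By position, 71 sites had their middle upstream, 121 in the gene body and 76 downstream. For the 9 genes together, 39.2% of intron 1 and 26.8% of the other introns lay in sites. Over 11039 protein-coding genes with a promoter site and at least 2 introns, the pooled shares were 12.0% and 4.81%. Smad3, Smad7 and Pmepa1 provided 67.6%, 98.3% and 92.7% for the introns after intron 1, where the 95th percentile of these genes was 41.1%. In contrast, the values were 0% for Tgfb1, 1.87% for Tgfb2, 4.29% for Tgfbr1, 7.81% for Tgfbr2, 6.20% for Skil and 20.5% for Tgfb3, compared to a median of 0.985%.

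Motifs of transcription factors linked to the pathway were then searched in the site sequence. AP-1 dimers of Fos and Jun proteins often act with Smads, and TGANTCA was taken as an AP-1 match. The N stands for any base, so this loose pattern also counts TGAATCA, as in the Tgfb2 stretch below. Smad3 and Smad4 bind the palindrome GTCTAGAC, and the CAGA box AGCCAGACA is another element known to respond to TGF-β. All were searched on both strands, and a Smad element means the palindrome or the CAGA box. In the central 200 bp, which is a window of equal length for every site, 25 of 268 sites (9.33%, 95% Wilson interval 6.40 to 13.4%) had an AP-1 match, compared to 8.1% of all listed sites. A Smad element was present in 2 of 268 (0.746%, interval 0.205 to 2.68%), compared to 0.752%. The shares were thus near those of the list, and both intervals, which cover counting error only, included them. Sites with an AP-1 match numbered 7 at Tgfb2, 5 at Smad3, 4 each at Tgfb3 and Tgfbr2, 2 each at Tgfbr1 and Smad7, 1 at Skil and 0 at Tgfb1 and Pmepa1.

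Over their whole length the sites of the 9 loci held 11 Smad palindromes, or 36.8 per Mb of site sequence (95% Wilson interval 20.6 to 65.98), compared to 10.8 per Mb in all listed sites. This count was added after the values for the central window had been seen. The interval covers counting error only and treats matches as independent. However, 4 of them were in 1 site of Pmepa1 and 2 in 1 site downstream of Smad3, so it is too narrow. Whether the density differs from that of the list was not tested. Outside sites, the same loci had 12 palindromes or 10.9 per Mb, compared to 7.75 per Mb on all chromosomes. The locus of Pmepa1 held 4 of the 11, Smad3 3, Smad7 2, and Tgfb3 and Tgfbr2 1 each. The 3 at Smad3 were in sites nearest to a TSS of Aagab, although the site of 2350 bp lay in the Smad3 gene body. That of Tgfb3 was in a site that overlapped Ift43 and was nearest to a TSS of Ift43. No palindrome was in a site of Tgfb1, Tgfb2, Tgfbr1 or Skil, while Tgfb2 had 4, Tgfbr1 2 and Skil 1 outside sites. In repeats lay 1 of the 11, in a site downstream of Smad3. The CAGA box was found 9 times in the sites, or 30.1 per Mb compared to 24.7 in the list, and AP-1 matches 120 times, or 402 per Mb compared to 430.

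All 4 palindromes of Pmepa1 were in intron 1, within the site of 23608 bp. Of 122171 sites, 844 held a palindrome, 7 held at least 2, and the Pmepa1 site was the only one with 4. A site of 2202 bp downstream of Smad3, which overlapped Aagab, was another of the 7. The stretches around the palindromes of Pmepa1 are shown because of this accumulation, together with the palindromes of Tgfb3 and Tgfbr2. The last line shows a stretch downstream of Tgfb2, with a CAGA box and an AP-1 match in a site of 206 bp. Sequences are from GRCm38.p6, 5′ to 3′ on the strand of the gene, and capitals mark the palindrome, the CAGA box (here in reverse complement) or the AP-1 match.
Pmepa1, 16844 bp from the 5′ end, chr2:173259656-173259715, minus strand: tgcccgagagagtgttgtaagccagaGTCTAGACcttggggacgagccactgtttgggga
Pmepa1, 18368 bp from the 5′ end, chr2:173258132-173258191, minus strand: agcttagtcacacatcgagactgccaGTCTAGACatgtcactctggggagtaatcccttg
Pmepa1, 22259 bp from the 5′ end, chr2:173254241-173254300, minus strand: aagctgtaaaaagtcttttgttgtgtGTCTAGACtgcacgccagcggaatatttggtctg
Pmepa1, 22539 bp from the 5′ end, chr2:173253961-173254020, minus strand: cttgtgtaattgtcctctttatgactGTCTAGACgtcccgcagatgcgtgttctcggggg
Tgfb3, -21852 bp from the 5′ end, chr12:86100860-86100919, minus strand: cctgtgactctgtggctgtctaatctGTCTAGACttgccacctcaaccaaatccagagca
Tgfbr2, 21699 bp from the 5′ end, chr9:116153628-116153687, minus strand: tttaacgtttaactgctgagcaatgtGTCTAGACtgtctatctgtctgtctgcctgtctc
Tgfb2, 99617 bp from the 5′ end, chr1:186606338-186606398, minus strand: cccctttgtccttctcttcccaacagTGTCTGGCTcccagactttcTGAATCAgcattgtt

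None of these stretches overlapped an exon of a protein-coding gene. The palindromes of Pmepa1 lay between 16844 and 22539 bp from the 5′ end, in the part of the site farthest from the 5′ end of the gene. At Tgfb3 the palindrome was in the widest upstream site, and at Tgfbr2 it was in a site of 1231 bp in intron 1, close to the middle of that site, and 3 of its bases were in an annotated repeat. Whether Smads bound any of them was not measured.

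Other genes of the pathway were compared to see where the 9 genes stood. Of 35 such genes, 33 had a promoter site, compared to 54.7% of all protein-coding genes, and 25 had their 5′ end inside a site, compared to 36.5%. These shares are also the background of the counts that follow. The share of the locus in sites ranged from 1.81% to 40.3%, with a median of 13.8%, compared to 16.1% for the 9 genes. Of 11 genes that handle the latent ligand, 9 had a promoter site. Those without were Ltbp4, which encodes a latent TGF-β binding protein, and Nrros, which anchors the latent ligand on myeloid cells. Most bases were covered at Ltbp1 (99112 bp) and Ltbp2 (59263 bp), and fewest at Nrros (2295 bp) and Itgb8 (6977 bp), an integrin subunit that takes part in ligand activation. The other receptors were Tgfbr3 (41481 bp), which encodes the co-receptor betaglycan, Eng (25820 bp), which encodes the co-receptor endoglin, and Acvrl1 (10638 bp), which encodes the type I receptor kinase ALK1. All 3 had a promoter site, but at Eng and Acvrl1 it was not at the annotated 5′ end, where the 2 kb had a cover of 0%. Tgfbr3 had a cover of 53.3% there.

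All 12 Smads and regulators had a promoter site, but their median cover was 5.11%. The largest values belonged to Ski (67851 bp), a co-repressor related to Skil, and to Smad6 (39424 bp), an inhibitory Smad like Smad7. Smad2, which transmits the same signal as Smad3, had 3065 bp, the smallest value of this group, and Ppm1a, a phosphatase of Smads, had 3402 bp. Smad3 thus had 22.8-fold more covered bases than Smad2. All 9 other target genes had a promoter site, and their median cover was 15.5%. Ldlrad4, an inhibitor of Smad activation, had 138978 bp and Cdkn2b, which encodes a cell cycle inhibitor, had 31118 bp. The smallest values were those of Rhob (9071 bp) and Ccn2 (14651 bp), which encodes connective tissue growth factor.

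**Figure D5:**
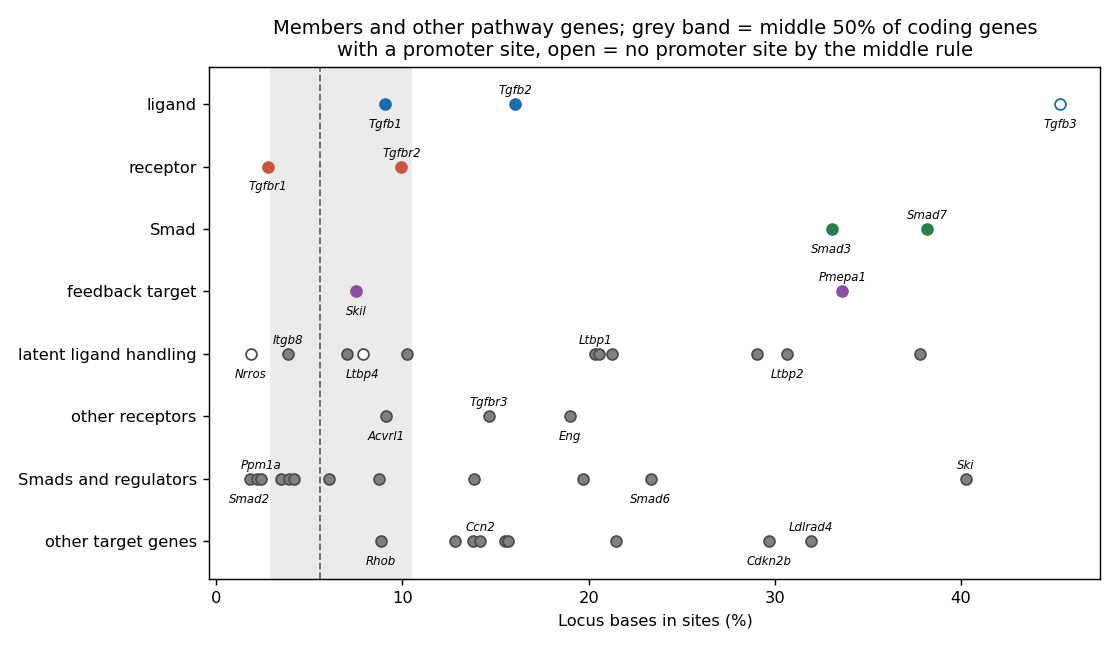
Share of each locus in sites, in percent, for the 9 genes (coloured, by role) and 35 other pathway genes (grey). Each point is a gene, open points had no promoter site by the rule on the middle of the site, the grey band spans the middle 50% of protein-coding genes with a promoter site and the dashed line is their median of 5.58%. Tgfb3 with 45.3% is the highest point, and Smads and regulators have a median of 5.11%.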

How the data were processed

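H3K27ac ChIP-seq was measured in iMEF cells with and without dTAG. As deposited, the file holds chromosome, start and end of the sites of all samples, with no other measure. According to the methods of the study, the authors used Trim Galore for trimming, BWA for alignment to mm10 and SAMtools for filtering. Replicates were merged with Picard and narrow peaks were called with MACS. Whether peaks were called on merged replicates, the version, the threshold and the way of joining the samples were not stated in the sources used here. The joined list shows no spread between replicates and no depth per sample.

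Start positions were taken as counted from 0 and are printed counted from 1. Genes and TSSs were from GENCODE M21, an earlier release than that of the authors, and sequence was RefSeq GRCm38.p6. Cover, distances and motif matches were computed with Python 3.11.15, NumPy 2.4.6 and SciPy 1.17.1, and the functions were tested on simulated sites. A site counted for a locus if it overlapped the gene body or 50 kb of flank by 1 bp. For the sites of the 9 loci, the shares with a match in the central 200 bp have 95% Wilson intervals. So does the density of Smad palindromes, and other percentages of sites are given without an interval. Groups were not tested, since the list analysed has no value per sample. The 9 genes, the pathway and marker lists and the motifs were chosen with earlier results of these data known. One gene of the pathway list is not reported here. All 9 genes were named. Other pathway genes were named if they lacked a promoter site or had the 2 largest or 2 smallest values of covered bases in their role, and neighbours if a site lay at their TSS, if the widest site overlapped them or, as for Ttll5, Col15a1 and Aagab, because sites lay in or nearest to them, which was chosen after values were seen.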

Additional observations from a re-analysis of the deposited data

How the results depend on the processing

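A count was taken as unchanged within 1.5 times its value and a share or density of matches within its 95% interval, whereas shares of bases and ratios, which have no error, were taken as moved by any change. By these limits 15 of 37 alternatives to 8 results left the value unchanged, 17 moved it and 5 reversed the ratio below. The 268 sites of the loci became 122 with gene bodies only, 156 with a flank of 10 kb and 106 after joining sites less than 1 kb apart. The share of bases in sites, 21.4%, was 34.6% without flank, 30.5% with 10 kb, 17.3% with 100 kb, 20.5% without the narrowest 25% of sites and 16.7% with sites nearest to the own TSS of the gene only.

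The ratio of feedback targets to ligands, 0.963, turned above 1 without flank (3.47), with 10 kb (2.32), with sites nearest to the own TSS (1.72), without Tgfb3 (1.63) and without Skil (1.49). It stayed below 1 with 100 kb (0.882), without the narrowest 25% (0.996), without Tgfb1 (0.782), without Tgfb2 (0.790) and without Pmepa1 (0.334). No order of these roles therefore holds over the settings. The number of genes with a promoter site, 8, was between 6 and 9 in 5 alternatives. The median promoter cover, 92.3%, was 89.8% with a window of 0.5 kb and 69.96% with 2 kb. Over whole sites, 26.1% had an AP-1 match and 5.97% a Smad element, compared to 21.1% and 2.22% of the list. The sites of the list were narrower, with a median of 401 bp compared to 444 bp. Their upper quartile was 723 bp compared to 1067.75 bp, and 0.711% compared to 4.48% exceeded 4 kb. Per Mb of site sequence, AP-1 matches numbered 402 in the 9 loci and 430 in the list. Smad palindromes numbered 36.8 and 10.8, and CAGA boxes 30.1 and 24.7. How far width accounts for these shares was not tested. The density of Smad palindromes in sites, 36.8 per Mb, was 28.3 without the locus of Pmepa1 and 33.5 without matches in repeats, both added after seeing the data.

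No paired analysis was possible because positions joined over samples carry no value per library. For the same reason, leaving out a replicate was not run, and how far the sites depend on depth, on peaks being merged or on time after dTAG was not tested.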
